A study of Caenorhabditis elegans with 4 samples.

Results

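AHA-1 peaks on chromosome III of Caenorhabditis elegans are described here, as found in fed first-stage (L1) hermaphrodite larvae by chromatin immunoprecipitation (ChIP) and sequencing. The members were every row given to chromosome III in the 3 deposited peak lists. They were 96 regions of 474 in the combined list, 3561 peaks of 23943 in ChIP replicate 1 and 2940 of 20827 in ChIP replicate 2. The rule used the chromosome name and no value of a peak, although III was taken up with earlier results of these data known. A replicate 1 peak was called reproduced when at least 1 bp of it overlapped a replicate 2 peak.

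The series held 2 ChIP libraries and 2 input libraries from a single strain, OP124, grown at 20 °C. All 4 libraries therefore shared 1 genotype, an unc-119(ed3) mutation together with the integrated transgene wgIs124, which carries aha-1 tagged with TY1, EGFP and FLAG as well as unc-119. The strain came from bombardment and had been outcrossed 3 times, and the antibody was raised against GFP. The tagged copy was present beside the worm's own aha-1 gene, and the larvae were whole animals, so a peak gives no cell type. No strain without the tag is among the samples, and no values of the input libraries were analysed here. Separate cultures are not stated for the 2 replicates, and differences between the lists may therefore reflect technical spread alone. The p-values below come from counts of peaks within the same 2 ChIP libraries and measure no spread between libraries.

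AHA-1 is the worm ortholog of mammalian ARNT, a protein of the basic helix-loop-helix PAS family. Such proteins bind DNA as pairs. In the worm the known partners of AHA-1 include HIF-1, which acts in the response to low oxygen, and AHR-1, which acts in the fate of certain neurons. The chromosomes of this worm have no single centromere. On the autosomes, of which III is the shortest, genes lie more densely in the centre, while the arms recombine more and hold more repeats. Genes near the peaks cannot be given from the sources used here, because the peaks carry positions of the WS220 build and the gene table at hand is of WBcel235. For the same reason no sequence of a site is printed.

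Peaks were dense in the replicate lists and sparse in the combined list. The length of III was taken as 13769884 bp, the last base reached by a peak. Replicate 1 had 259 peaks per Mb of III and replicate 2 had 214, and their peaks covered 10.2% and 9.68% of the chromosome. The combined list held 6.97 regions per Mb and covered 0.309%. The replicate lists came from one peak caller and the combined list from another, so the densities compare lists and not levels of binding. The highest score of a replicate list is shared by many peaks, and on III it was held by 207 peaks of replicate 1 and 90 of replicate 2.

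In the first 10 reproduced pairs by the authors' peak numbers, the midpoints of the replicates lay 5 to 71 bp apart, and 4 of these pairs held a peak narrower than its list's usual width. Each replicate list had a fixed peak width, 410 bp in replicate 1 and 484 bp in replicate 2, with 6 exceptions on III. In replicate 1 the 4 narrower peaks were 118 to 218 bp wide and carried the authors' peak numbers 6, 14, 21 and 30. In replicate 2 the 2 narrower peaks were 157 and 129 bp wide and carried the numbers 20 and 30. All 6 had the highest score, were reproduced and lay in a combined region. Elsewhere, on II, IV, V and X, the 13 narrower peaks of replicate 1 and the 6 of replicate 2 likewise all had the highest score, so this feature was shared by the chromosomes. What the peak numbers rank by is not stated, and among peaks with the highest score they are the only order the lists give.

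The first pair by these numbers lay at 3867448 to 3867665 in replicate 1 (number 6) and 3867310 to 3867793 in replicate 2 (number 16), with midpoints 5 bp apart. The second lay at 10759076 to 10759218 (number 21) and 10759103 to 10759259 (number 20), where both peaks were narrow and the midpoints were 34 bp apart. The next was at 7854568 to 7854685 in replicate 1, with numbers 14 and 39 in replicates 1 and 2. Together these 3 pairs put one leading site in each of the left, central and right parts of the chromosome.

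A pair near the left end followed, at 67212 to 67344 in replicate 1, with numbers 30 and 27. Toward the right end lay 12904887 to 12905296, with numbers 34 and 25, and 13643467 to 13643876, with numbers 32 and 36. Leading sites therefore reached close to both ends of III. The central part held 4899738 to 4900147 (numbers 66 and 14) and 5018071 to 5018480 (numbers 41 and 47). The first 10 pairs were completed by 1618916 to 1619325 (numbers 26 and 70) and 10633954 to 10634363 (numbers 108 and 23). All of these 10 pairs lay in a combined region and had the highest score in both lists.

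The combined list put other regions first. Its 2 lowest q-values on III belonged to broad neighbouring regions, from 10906183 to 10909768 (3586 bp, q = 1.06e-81) and from 10904028 to 10905624 (1597 bp, q = 8.21e-73). They were separated by 558 bp and were the only regions of 1500 bp or more on III, where II, IV, V and X together had 7. Under the wider region lay 6 replicate 1 peaks and 4 replicate 2 peaks. Its best replicate 1 peak, from 10906864 to 10907273 (number 1279), had a score of 2.93, below the highest score of 3.39. Its best replicate 2 peak, from 10908971 to 10909454 (number 401), had the highest score of 3.01. The best peaks of the replicates under this region thus lay at opposite sides of its midpoint. Their own midpoints were at -907 bp in replicate 1 and at 1237 bp in replicate 2, counted from it. Each of these best peaks was nevertheless reproduced. A replicate 2 peak from 10906867 to 10907350 (number 684) overlapped the best replicate 1 peak. Replicate 1 peaks from 10908856 to 10909265 and from 10909375 to 10909784 overlapped the best replicate 2 peak.

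Under the narrower of the broad regions lay 3 replicate 1 peaks and 2 replicate 2 peaks. The best were 10904710 to 10905119 in replicate 1 (number 1004) and the 129 bp peak from 10905233 to 10905361 in replicate 2 (number 30). These best peaks did not overlap each other, although the replicate 2 peak overlapped the replicate 1 peak from 10904918 to 10905327 (number 1153). The broad pair therefore combined the lowest q-values of the chromosome with replicate 1 peaks of much higher number than the first 10 pairs. The transgene carries unc-119, and the RefSeq gene table of the WBcel235 assembly places the worm's own unc-119 on III. Whether these regions lie at unc-119 was not tested, since positions of that table belong to another build.

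**Figure D1:**
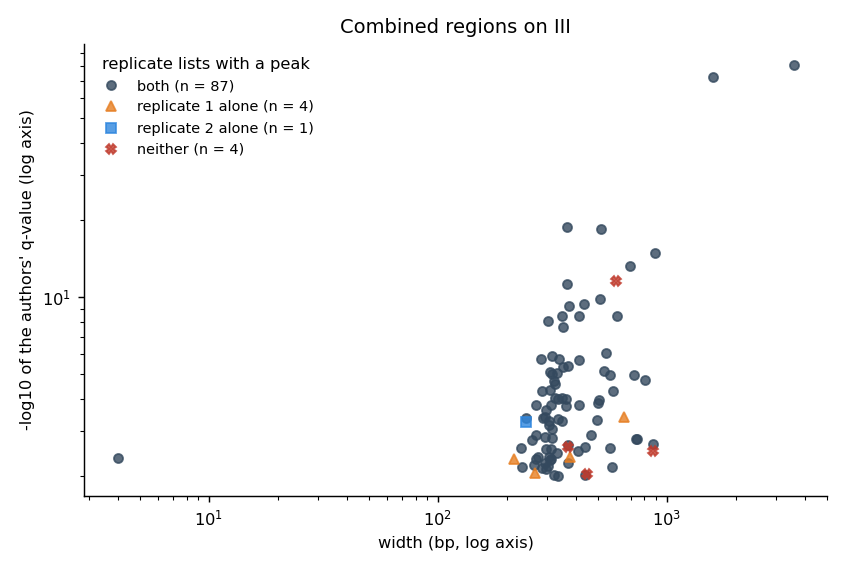
Width in bp against the −log10 of the authors' q-value for the 96 combined regions on III, both on log axes, with each region marked by the replicate lists that hold a peak under it. The 2 broad regions stand alone at the top right, 1 region is 4 bp wide, and all others lie between 215 and 893 bp.

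Below the broad pair, the next 5 regions by q-value were 366 to 893 bp wide, the widest of them also the widest on III under 1500 bp. The leading pair of the replicates gave the region from 3867378 to 3867743 (366 bp, q = 1.96e-19), and the narrow pair gave 10758893 to 10759408 (516 bp, q = 4.36e-19). This widest one followed from 10224464 to 10225356 (893 bp, q = 1.43e-15). That region had a replicate 1 peak of highest score (number 416) but only a score of 2.26 in replicate 2. The region from 4281884 to 4282572 (689 bp, q = 6.51e-14) held 2 peaks in each replicate list, with best numbers 72 and 136.

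The seventh, from 931226 to 931827 (602 bp, q = 3.05e-12), had no peak in either replicate list. Its nearest replicate 1 peak was 1063 bp away with number 23209, and its nearest replicate 2 peak was 1327 bp away with number 7875. No other region among the 20 lowest q-values of III lacked a replicate peak. The eighth was the central site from 7854428 to 7854794 (q = 6.44e-12). After it came 12612305 to 12612814 (q = 1.51e-10, numbers 471 and 81) and 4899649 to 4900083 (q = 3.92e-10).

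The next 6 were all sites with the highest score in both replicates. They lay at 67066 to 67440 (q = 5.94e-10), 1618938 to 1619285 (q = 3.75e-09) and 5018066 to 5018480 (q = 3.81e-09). The others were 1924997 to 1925605 (q = 4.08e-09), 12904939 to 12905242 (q = 8.35e-09) and 13643462 to 13643815 (q = 2.34e-08). Replicate 2 was weaker at 2 of the last 4 of the 20. The region from 8443385 to 8443929 (q = 9.83e-07) had a replicate 2 score of 0.942, and 7162272 to 7162611 (q = 1.88e-06) had one of 2.55, both with the highest score in replicate 1. The remaining regions of the 20, 3456246 to 3456560 (q = 1.39e-06) and 2528656 to 2528938 (q = 1.86e-06), had the highest score in both.

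Over all 96 regions the q-values ran from 1.06e-81 to 0.00995 with a median of 0.000422. The median on II, IV, V and X together was 0.000383. On III, 26 regions (27.1%) were at or below 1e-05, against 27.1% on the other 4 chromosomes, and 57 (59.4%) were at or below 0.001, against 57.9%. Widths were close as well, with a median of 344 bp and an interquartile range of 304 to 474 bp on III and a median of 344 bp (300.2 to 455 bp) elsewhere. The medians of q-value and width on III were thus close to those of the other 4 chromosomes pooled, and no test was made of either. Between those 4 the median q-value ran from 0.000115 on X to 0.000888 on IV. Their median width ran from 320 bp on II to 397.5 bp on X. A single region, from 13543746 to 13543749 (q = 0.00449), was only 4 bp wide, and it was the only one under 100 bp in the whole combined list. Its best peaks were number 20250 in replicate 1, with a score of 0.247, and number 6693 in replicate 2, with a score of 0.988, where the median scores on III were 0.620 in both lists. Why the region is so narrow is not stated, and a fault of the peak calling or of the file was not tested.

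Nearly all combined regions on III had a peak in both replicate lists. The number was 87 of 96 (90.6%, 95% interval 82.9 to 95.6), where the background on II, IV, V and X was 91.0% (two-sided Fisher's exact test, adjusted p = 1). The odds ratio was 0.961, and on the single chromosomes the share ran from 86.9% on IV to 95.2% on II. Intervals here are exact binomial and cover the counting of peaks only. The best peak under the region had the highest score in both lists for 59 regions. It had it in replicate 1 for 84 regions and in replicate 2 for 61. Of the 26 regions at or below 1e-05, 21 had it in both lists, against 18 of the 39 regions above 0.001. Across the 87 regions with a peak in both lists, Spearman's rho was 0.50 between q-value and the best replicate 1 number, 0.53 for replicate 2 and 0.41 between the numbers of the replicates. These describe regions that share the same libraries.

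Peaks and regions also matched closely in position. The midpoint of the best replicate peak lay a median of 18.5 bp from the midpoint of the region in replicate 1 and 22.2 bp in replicate 2. Of the 9 regions not found in both lists, 4 had a replicate 1 peak alone, 1 had a replicate 2 peak alone and 4 had neither. Besides the region from 931226 to 931827, the lowest q-values among them were at 9618993 to 9619646 (q = 0.000402) and 10270738 to 10270979 (q = 0.000563). The first of these had a highest-score replicate 1 peak (number 240), and a low replicate 2 peak (number 12923) missed it by 66 bp. The second had a replicate 2 peak of low score alone, number 15005 with a score of 0.393.

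Replicates were then compared directly over all peaks of III. Of the 3561 replicate 1 peaks, 909 were reproduced (25.5%, 24.1 to 27.0), beside a background of 24.3% on II, IV, V and X (Fisher's exact test, adjusted p = 0.222, odds ratio 1.07). Seen from the other list, 920 of 2940 replicate 2 peaks (31.3%, 29.6 to 33.0) overlapped a replicate 1 peak, beside a background of 27.7% (Fisher's exact test, adjusted p = 0.000766, odds ratio 1.19). The share was 30.2% on IV, 28.3% on X, 27.4% on II and 25.4% on V, so III stood highest with IV next to it. Peaks are not independent of each other, so these p-values are likely too small.

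Peak density moved with the second comparison. Of all possible 484 bp windows on III, 21.0% touched a replicate 1 peak, against 19.0% on the other 4 chromosomes. The observed share was 1.49 times this figure on III and 1.46 times elsewhere, and on IV it was 1.56 times. For replicate 1 peaks, 17.1% of the 410 bp windows on III touched a replicate 2 peak, against 16.6% elsewhere, and the ratios were 1.50 and 1.47. The part of peak density in the higher share was not tested.

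The strength of a peak went with its reproduction. On III, 152 of 207 replicate 1 peaks with the highest score were reproduced (73.4%, 66.9 to 79.3), beside a background of 66.8% (Fisher's exact test, adjusted p = 0.157, odds ratio 1.37). In the rest of the stronger 50% of the list the share on III was 24.9%, and in the weaker 50% it was 20.4% (18.6 to 22.4). The interval of the weaker peaks lies above the 17.1% of 410 bp windows that touch a replicate 2 peak. In replicate 2, 83 of 90 highest-score peaks on III overlapped a replicate 1 peak (92.2%, 84.6 to 96.8). The share on the other 4 chromosomes was 83.6% (79.1 to 87.5), and this difference was not tested. The share on III was 33.7% in the rest of the stronger 50% and 25.5% (23.3 to 27.8) in the weaker 50%. The latter was above the 21.0% of 484 bp windows that touch a replicate 1 peak. Windows were counted evenly at every position of III, and peaks are not independent of each other. Neither comparison with windows can therefore show that weaker peaks were reproduced beyond chance.

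**Figure D2:**
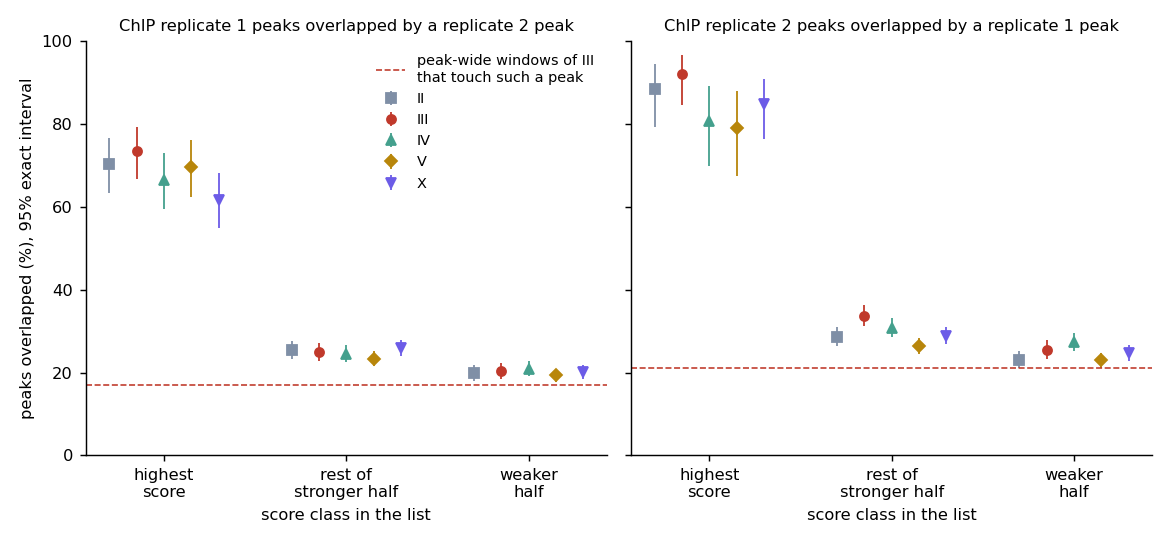
Share of peaks (%) overlapped by a peak of the other replicate, by score class and chromosome, with exact 95% binomial intervals. The left panel shows replicate 1 peaks and the right panel replicate 2 peaks. The dashed line is the share of peak-wide windows on III that touch a peak of the other list, 17.1% and 21.0%. Highest-score peaks of III sit at 73.4% and 92.2%, and the weaker 50% sits at 20.4% and 25.5%.

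The distance between midpoints separated strong from weak pairs. The 909 reproduced peaks formed 1039 overlapping pairs with 920 replicate 2 peaks, since 128 of them overlapped more than 1. In the 72 pairs with the highest score in both lists, the median distance of the midpoints was 36 bp, with quartiles at 14 and 71.5 bp, and 48 pairs (66.7%) were within 50 bp. In the 837 pairs with the highest score in neither list, the median was 202 bp and 15.9% were within 50 bp. Pairs with the highest score in 1 list lay between, with a median of 100.5 bp. Where both peaks came from the weaker 50% of their lists, the median was 230.5 bp and 57.4% were over 200 bp apart. Those weakest pairs numbered 188. Most of the 1039 pairs were among the 837 with the highest score in neither list, whose midpoints spread across nearly the whole range that an overlap allows.

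**Figure D3:**
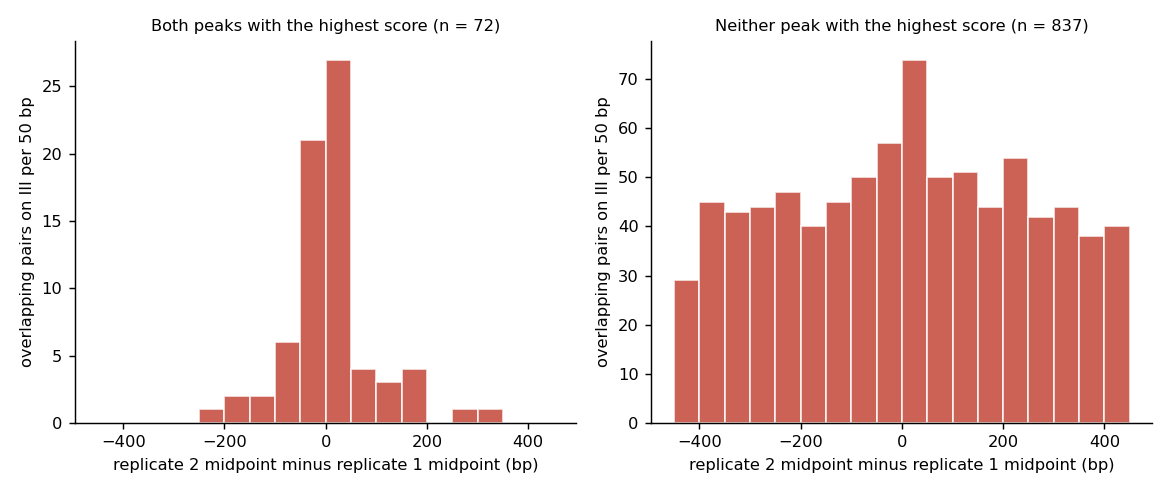
Replicate 2 midpoint minus replicate 1 midpoint in bp for overlapping pairs on III, counted per 50 bp. The left panel holds the 72 pairs with the highest score in both lists, which gather around 0, and the right panel holds the 837 pairs with it in neither, which spread out to over 400 bp with a low rise near 0.

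The combined list took in most strong pairs and few weak ones. It covered 63 of the 72 pairs with the highest score in both lists (87.5%), 47 of the 130 with it in 1 list (36.2%) and 17 of the 837 with it in neither (2.03%). Of the 55 highest-score replicate 1 peaks that were not reproduced, 4 lay in a combined region. No such shares are given here for II, IV, V and X, so whether those on III are usual for the series cannot be told. Among the 9 strong pairs left out, the first by number lay at 13462800 to 13463209 in replicate 1 (numbers 248 and 284), 2.68 kb from the nearest combined region and with midpoints 271 bp apart. The next were 10706923 to 10707332 (numbers 423 and 473, midpoints 40 bp apart) and 10461077 to 10461486 (numbers 501 and 498, midpoints 45 bp apart). The pair at 10706923 had others close by. Within 13.54 kb, from 10706923 to 10720460, lay 3 of the 9 pairs, and the nearest combined region was over 38 kb from each of them. This stretch was noticed after its values were seen.

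Along the chromosome, combined regions were spread rather evenly over 3 equal parts, called left, central and right. The left part, ending at 4589961, held 29 regions, the central part, ending at 9179922, held 32, and the right part held 35. The central share was 33.3% (24.0 to 43.7), against 35.0% on II, IV, V and X together (Fisher's exact test, adjusted p = 0.925, odds ratio 0.927). X was about as even, with 28, 29 and 23 regions from left to right. On the others a single part held more, with 53.0% of the regions of II in its right part, 45.8% of those of IV in its left part and 46.4% of those of V in its central part. The evenness was not tested.

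Reproduced peaks were likewise spread over III, with 336 of 909 in the central part (37.0%, 33.8 to 40.2) against 35.8% elsewhere (Fisher's exact test, adjusted p = 0.688, odds ratio 1.05). In the central part 28.7% (26.1 to 31.4) of the replicate 1 peaks were reproduced. The shares were 22.2% (19.8 to 24.8) in the left and 25.5% (23.1 to 28.0) in the right part. Windows that touched a replicate 2 peak made up 17.7% of the central, 16.1% of the left and 17.4% of the right part, so their order was the same. The reproduced share was 1.625 times the window share in the central, 1.377 times in the left and 1.465 times in the right part. Among highest-score peaks, 60 of 74 were reproduced in the central part, 39 of 53 in the left and 53 of 80 in the right. The differences between the parts were not tested.

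Finer steps showed where regions were few. Cut into 10 equal segments, numbered from the left end, III had fewest combined regions in segment 5 with 3 and segment 9 with 4, and most in segment 7 with 15 and segment 8 with 14. Segment 5 nevertheless held 14 reproduced highest-score replicate 1 peaks, as against 22 in segment 7. The longest stretch without a combined region ran for 760 kb, from 11392046 to 12152092. It was not empty in the replicates, where it held 189 replicate 1 and 152 replicate 2 peaks, of which 8 and 3 had the highest score. Of those replicate 1 peaks 42 (22.2%) were reproduced. Cut into 138 windows of 100 kb, III had a combined region in 66 of them.

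**Figure D4:**
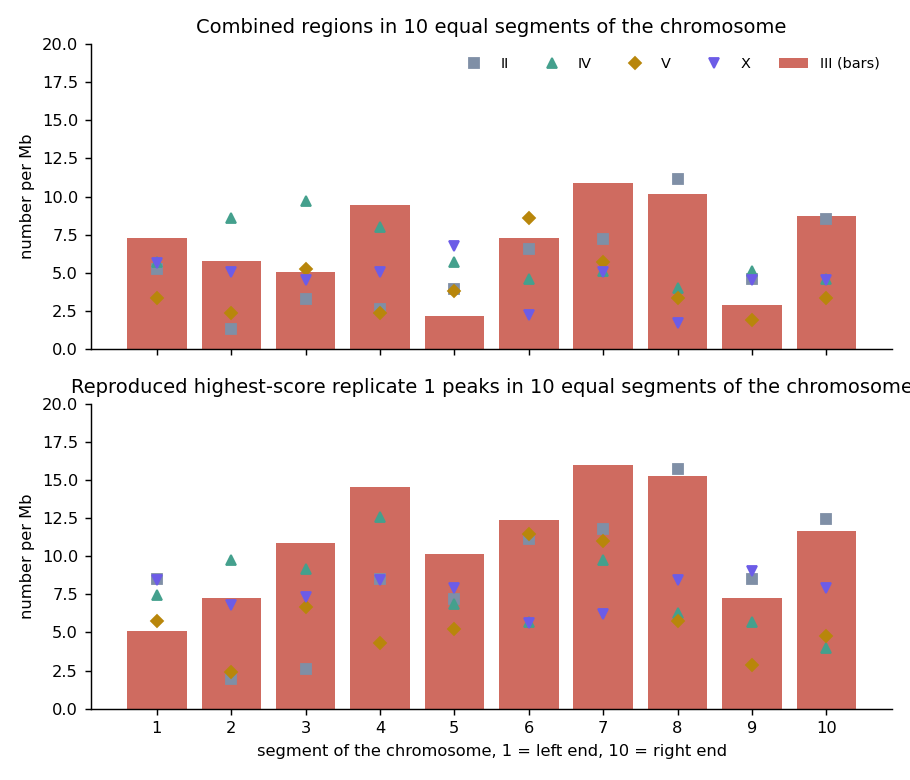
Number per Mb in each of 10 equal segments of the chromosome, numbered from the left end, for combined regions (top) and for reproduced highest-score replicate 1 peaks (bottom), with III as bars and II, IV, V and X as points. On III the combined regions are lowest in segments 5 and 9 (2.18 and 2.90 per Mb) and highest in segment 7 (10.9 per Mb).

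Regions on III came in groups more often than the background in number, but the difference did not pass the test. A combined region had another within 5 kb, midpoint to midpoint, in 26 of 96 cases (27.1%, 18.5 to 37.1), beside a background of 16.7% (Fisher's exact test, p = 0.0270, adjusted p = 0.0720, odds ratio 1.86). The share was 24.3% on IV, 17.9% on V, 12.0% on II and 10.0% on X. Combined regions were also denser on III, at 6.97 per Mb against 4.96 on the other 4 chromosomes. The part of this density in the neighbour share was not tested. The neighbour share passed without chromosome IV in the background (Fisher's exact test, adjusted p = 0.0103) and among regions at or below 0.001 (33.3% against 17.1%, adjusted p = 0.0260). IV had the share nearest to that of III, and without IV the background fell to 13.4%. The neighbour share passed in no other setting, including without II, V or X (Fisher's exact test, adjusted p = 0.145, 0.0802 and 0.213). Neighbours count for each other, so the 26 cases are linked. The p-values are therefore likely too small and the interval too narrow. The 26 regions formed 11 groups, 8 pairs, 2 groups of 3 and 1 of 4. They were wider than the 70 regions with no neighbour, with medians of 415.5 and 324.5 bp, and had lower q-values, with medians of 0.000107 and 0.00109. It was not tested whether some groups are one long stretch of enrichment cut up in peak calling.

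The group of 4 lay in the left part and spanned 5734 bp from 1921050 to 1926783. Its members began at 1921050 (q = 1.08e-05), 1923486 (q = 2.09e-06), 1924997 (q = 4.08e-09) and 1926448 (q = 0.000107). Each held exactly 1 peak of each replicate, so both lists resolved the same 4 sites. The first 3 had the highest score in both replicates. At the last, replicate 2 had the highest score (number 26) and replicate 1 a score of 2.62 (number 1454).

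A group of 3 in the central part spanned 6699 bp from 8795583 to 8802281. Its q-values were near each other, 7.05e-06, 1.89e-05 and 1.07e-05 from left to right, and the best replicate 1 peaks had the numbers 130, 63 and 40, with 2 peaks of each replicate under the middle region. The other group of 3 spanned 6341 bp from 12608478 to 12614818 in the right part and was uneven. Its middle region had a q-value of 1.51e-10, and those beside it had 0.000106 and 0.00570. All 10 regions of these 3 groups had a peak in both replicate lists.

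The number of regions on III was above its share of length. Of the 450 combined regions on II, III, IV, V and X, 96 lay on III (21.3%, 17.6 to 25.4), which makes up 16.2% of the length of these chromosomes (two-sided exact binomial test, adjusted p = 0.0156). The excess, 1.32 times, was known from these data beforehand, so the test is no separate support. Per Mb, III had 6.97 regions, IV 6.12, II 5.43, X 4.52 and V 4.02. The order of III and IV at the top was that of the neighbour shares as well. By the same exact test the excess did not pass without chromosome V (adjusted p = 0.0802) or among regions at or below 0.001 (21.8%, adjusted p = 0.0720). Peaks with the highest score were also dense on III, with 15.03 per Mb in replicate 1 and 6.54 in replicate 2, against 11.1 and 4.52 on the other 4 chromosomes. In replicate 2, X was nearest to III in highest-score peaks, at 5.93 per Mb. Peaks of any score numbered 259 and 214 per Mb on III, against 233.5 and 207 elsewhere. In replicate 2, peaks of any score were denser on X (218.3 per Mb) and II (214.4) than on III (213.5).

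**Figure D5:**
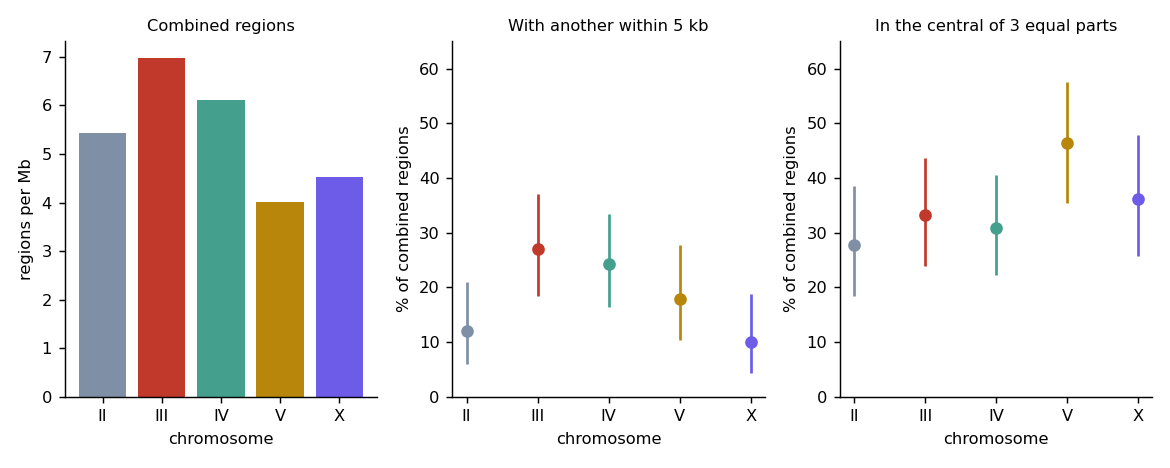
Combined regions per Mb (left, bars), share of combined regions with another within 5 kb (middle) and share in the central of 3 equal parts of the chromosome (right), by chromosome, with exact 95% binomial intervals on the shares. III is highest in density at 6.97 per Mb and in neighbour share at 27.1%, next to IV at 6.12 per Mb and 24.3%, and its central share of 33.3% lies among the others.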

How the data were processed

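Per the file headers and source columns, the authors called replicate peaks with SPP through the IDR procedure and combined regions with PeakSeq, on WormBase WS220. The deposited replicate score has no stated scale, and the deposited q-value of a combined region is the authors' own. For the aligner, the software versions, the pooling and the read depth the sources used here give nothing, and no depth stands behind the values.

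Overlaps, distances and shares were computed with Python 3.11.15, pandas 2.3.3 and NumPy 2.4.6, and exact tests and intervals with SciPy 1.17.1. The overlap code was tested on simulated data. The 8 tests set III against II, IV, V and X (chromosome I was left out because the combined list lacks many of its sites), and p-values were adjusted over the 8 by Benjamini-Hochberg. Ranks follow the score, then the authors' peak number. Positions are 1-based, and the last base reached by any peak stood for the length of a chromosome.

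Named sites on III were the 20 lowest q-values, regions of 1500 bp or more, groups of 3 or more, the 3 lowest q-values not found in both lists, the 10 pairs with the lowest sum of peak numbers and the first 3 highest-score pairs outside the combined list. The 4 bp region, the longest gap and the stretch of 3 strong pairs were added after their values were seen. Members and lists were chosen with earlier results of these data known.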

Additional observations from a re-analysis of the deposited data

How the results depend on the processing

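Read depth is unknown, so an absent peak may be one that too few reads could show, and the 1 bp overlap rule counts many weak pairs. Of 63 alternative settings over the 8 results, 51 kept the direction and the side of the threshold. No paired analysis was possible because only the ChIP libraries have peak lists here. Shares of reproduced peaks need both replicates, so neither could be left out of them.

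The share of replicate 2 peaks reproduced passed Fisher's exact test under every alternative run for it, at 18.3% with a reciprocal overlap of at least 50% (adjusted p = 0.0403), 18.2% with midpoints within 200 bp (0.0360) and 25.6% in the stronger 50% of each list (0.000273). In the first 2 of these settings the lowest of the 8 p-values was that of the length share, whose excess was known beforehand (exact binomial test, p = 0.0039). Without that test in the adjustment, 0.0403 and 0.0360 would be higher. Such an adjustment was not run, so the pass in these 2 settings is not secure. By Fisher's exact test the neighbour share came to pass among q-values of at most 0.001 (33.3%) and without chromosome IV (27.1%), but not without II, V or X. By the same exact test it did not pass without the broad regions (25.5% against 16.7%, adjusted p = 0.157). Nor did it pass within 2 kb (9.38% against 7.91%) or within 10 kb (30.2% against 22.3%). In a further setting, the first 474 peaks by rank of 1 replicate, as many as the combined list holds, replaced that list. The neighbour share was then 26.1% against 16.6% for replicate 1 and 27.9% against 21.5% for replicate 2. The neighbour share passed in neither of these. The length share of III was 21.8% among q-values of at most 0.001, against 16.2% by length, where it no longer passed. With a background chromosome left out it was 25.9% to 28.0%, while the share expected by length rose to 19.7% to 21.4%. There it failed only without V (26.2% against 21.4%). Among the first 474 peaks by rank of 1 replicate, the length share was 23.4% in replicate 1 and 21.7% in replicate 2, against 16.2%. These values do not describe the full replicate lists. There III had 259 and 214 peaks per Mb, against 233.5 and 207 on the other chromosomes.

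Differences that never passed the test changed direction in some settings. Regions with a peak in both lists came to lie above the background at a reciprocal overlap of 50% (78.1% against 76.0%), at q-values of at most 0.001 (94.7% against 93.7%) and without chromosome II or X (90.6% against 89.7% and 90.5%). The central share of combined regions lay above the background at q-values of at most 0.001 (33.3% against 31.2%) and without chromosome V (33.3% against 31.5%). With the first 474 replicate 1 peaks by rank in place of the combined list, the central share was also above the background (35.9% against 34.4%). The central share of reproduced peaks lay below it without chromosome X (37.0% against 37.3%). The causes were not tested.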
